A study of Homo sapiens with 16 samples.

Results

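The genes described here are those of the ATF4 amino acid response: the enzymes of serine synthesis and folate metabolism, other amino acid enzymes, amino acid transporters, cytosolic tRNA synthetases, and the regulators around the transcription factor ATF4. Of 36 listed genes, 34 had at least 1 probe set named by a single gene symbol and were read among 11963 such genes in all. SESN2 and MARS1 had none and were not analysed here. The 34 genes are covered by 50 probe sets, and 10 genes have more than 1. Where a gene had several, its brightest probe set on average over all arrays was used, and levels are log2 values.

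The levels come from 16 Affymetrix U133 2.0 arrays of total RNA from 4 human breast cancer lines, in 8 groups of 2 arrays each. MDAMB231 and LM24175, described as invasive, had been stably infected with an empty vector (EV) or with a construct that expresses RECK constitutively. Hs343T and Hs606T, described as poorly invasive, had been transfected with a scrambled siRNA (siSCR) or with an siRNA against RECK (siRECK). RECK is a membrane-anchored inhibitor of matrix metalloproteinases, and the series asked what changing its level does in these lines. The labels give no time after transfection, no dose and no clone, and nothing in them states that paired arrays hold RNA of different cultures. The p-values below therefore reflect the spread of these arrays alone, and that spread may be technical.

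ATF4 is a transcription factor whose protein is made when the translation factor eIF2 is phosphorylated, for example by the kinase GCN2 when uncharged tRNA accumulates. It is controlled largely at translation, so its mRNA need not follow its activity. With partners of the C/EBP family it binds a composite element in its target genes and raises the enzymes, transporters and tRNA synthetases that make, import and use amino acids. In breast cancer the serine branch of this program, led by PHGDH, is known for supplying one-carbon units to nucleotide synthesis.

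The composite element was looked for as TGATGNAA on both strands, in windows from 250 bases before to 50 bases after each RefSeq start (GRCh38.p14). It was present in 2.45% of 14058 windows, and in at least 1 window of 12 of the 29 member genes with a window, against 3.43% of 9563 genes. No promoter entry was matched for PSPH, SHMT2, NUPR1, SLC7A11 and YARS1. The stretches below are those of the members that hold the whole element ahead of the start, among them enzymes, a regulator, a transporter and synthetases. They run 5′ to 3′ on the gene's strand and end at or before the start, with the match in capitals.
ASNS: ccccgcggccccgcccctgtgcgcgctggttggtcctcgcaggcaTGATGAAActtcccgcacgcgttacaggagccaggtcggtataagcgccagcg
CHAC1: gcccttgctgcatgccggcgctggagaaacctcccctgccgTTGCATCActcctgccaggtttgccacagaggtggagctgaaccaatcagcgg
CEBPG: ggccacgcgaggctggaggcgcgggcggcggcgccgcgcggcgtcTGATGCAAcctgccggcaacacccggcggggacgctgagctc
SLC1A5: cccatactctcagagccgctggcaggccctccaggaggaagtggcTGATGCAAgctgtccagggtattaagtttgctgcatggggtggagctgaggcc
AARS1: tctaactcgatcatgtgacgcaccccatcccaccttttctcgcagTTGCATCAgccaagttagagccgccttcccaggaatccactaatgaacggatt
GARS1: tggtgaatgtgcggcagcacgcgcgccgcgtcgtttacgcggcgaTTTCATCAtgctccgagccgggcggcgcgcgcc
IARS1: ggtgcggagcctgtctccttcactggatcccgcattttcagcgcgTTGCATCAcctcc
In GRCh38.p14 these stretches are ASNS, chr7:97872424-97872521 on the minus strand; CHAC1, chr15:40953221-40953314 on the plus strand; CEBPG, chr19:33374026-33374112 on the plus strand; SLC1A5, chr19:46784859-46784956 on the minus strand; AARS1, chr16:70289641-70289738 on the minus strand; GARS1, chr7:30594800-30594877 on the plus strand; and IARS1, chr9:92293698-92293755 on the minus strand. The match lay 68 bases before the start in ASNS, 209 in CHAC1, 42 in CEBPG, 97 in SLC1A5, 187 in AARS1, 33 in GARS1 and 13 in IARS1. In CARS1 the match TTGCATCA began 2 bases before the start and ran across it. In TARS1, SLC7A1, NARS1 and SLC3A2 it lay after the start. These are matches of letters in a window and no binding was measured.

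WARS1, the tryptophanyl-tRNA synthetase, is also known as an interferon-induced gene, and its window was searched on both strands for GAAA repeated after a gap of 2 bases, an arrangement typical of interferon-responsive promoters. The repeat was found 55 bases before 1 of the 2 listed WARS1 starts, at WARS1, chr14:100375348-100375447 on the minus strand. It was present in 3.02% of all windows and in 4.13% of genes, and WARS1 was the 1 member gene of 29 that held it.
WARS1: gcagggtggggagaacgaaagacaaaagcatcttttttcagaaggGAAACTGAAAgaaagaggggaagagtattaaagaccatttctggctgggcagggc

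Array medians lay between 6.42 and 6.57, lower quartiles between 4.47 and 4.68, and arrays of the same group correlated at 0.994 to 0.998. RECK went against the siRNA labels: it read 6.07 and 5.52 on the Hs343T arrays labelled siSCR and 11.3 and 11.2 on those labelled siRECK, and it was also higher on the siRECK arrays of Hs606T (log2 difference 2.40, adjusted p = 6.65e-06, limma). Directions in the siRNA arms below are those of the labels. In the construct lines RECK differed by 0.03 in MDAMB231 and by -0.42 in LM24175, neither past the test. Among cell type markers, those of epithelium were mixed. KRT18 was at 12.6 to 12.9, KRT8 at 9.48 to 10.2, EPCAM at 7.97 to 8.96 and KRT19 at 8.78 to 11.3 in the invasive lines. In the poorly invasive lines KRT18 was at 8.34 to 10.2, KRT8 at 6.08 to 7.11, EPCAM at 3.92 to 4.76 and KRT19 at 8.91 to 11.0. CDH1 was at 3.75 to 4.31 on all 16 arrays, below every array's lower quartile. The fibroblast gene COL3A1 was at 3.64 to 5.66 in the invasive lines and at 13.7 to 14.4 in the poorly invasive lines. From the same list VIM (14.2 to 14.4 against 14.4 to 14.5) and FN1 (10.9 to 12.9 against 14.2 to 14.4) were high in both. The leukocyte gene PTPRC reached at most 3.77. The 5 leukocyte genes measured ran from 3.07 to 6.10 in the invasive lines and from 3.32 to 6.63 in the poorly invasive lines. Two-sided moderated tests were made with limma over all 11963 genes, adjusted by Benjamini and Hochberg, and an adjusted p under 0.05 passed. With 2 arrays against 2, an exact permutation test of a single gene could not go below 0.333.

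In Hs343T the members fell together on the arrays labelled siRECK. Of 34 members, 25 were lower and 1, WARS1, was higher, with a median log2 difference of -0.50 against -0.06 over all genes. Among all genes, 17.4% passed as lower and 12.0% as higher, 29.3% in either direction. The 2 siRECK arrays lay below both siSCR arrays for 31 members, against 40.0% of all genes, and NUPR1, SLC38A2 and WARS1 were the exceptions.

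Among the enzymes of serine and folate metabolism, 4 of 5 fell. PSAT1, the aminotransferase of serine synthesis, read 8.19 and 8.08 on the siSCR arrays and 7.33 and 7.54 on the siRECK arrays, a 1.62-fold lower level (95% interval 1.28 to 2.06, adjusted p = 0.00498). PSPH, the phosphatase that completes serine synthesis, went from 9.77 and 9.74 to 8.51 and 8.75, a 2.19-fold lower level (1.74 to 2.74, adjusted p = 1.01e-04). These are values of its main probe set, and its probe sets went opposite ways between the 2 poorly invasive lines, as given below. The PSPH call here and that between the responses of the 2 lines also held with the mean of its probe sets. The mitochondrial folate enzyme MTHFD2 went from 11.99 on both siSCR arrays to 11.17 and 11.22, a 1.73-fold lower level (1.48 to 2.03, adjusted p = 9.4e-05). In none of the 3 genes did the groups of arrays overlap, and the gap between groups was several times the gap between arrays of a group. SHMT2, the mitochondrial serine hydroxymethyltransferase, fell by 0.49 (SE 0.12, adjusted p = 0.00656), and all 3 of its probe sets passed as lower. PHGDH, which makes the first committed step of serine synthesis, read 9.30 and 9.37 on the siSCR arrays and 9.07 and 9.05 on the siRECK arrays. Its arrays did not overlap, but the difference of -0.27 (95% interval -0.60 to 0.06) did not pass (adjusted p = 0.216).

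All 3 of the other amino acid enzymes fell. ASNS, asparagine synthetase and a classical ATF4 target whose element is printed above, read 10.8 and 10.7 on the siSCR arrays and 9.81 and 9.98 on the siRECK arrays. This was a 1.82-fold lower level (95% interval 1.32 to 2.53, adjusted p = 0.00865). CHAC1, which degrades glutathione, went from 8.50 and 8.59 to 7.24 and 7.56, a 2.21-fold lower level (1.37 to 3.55, adjusted p = 0.0162). CTH, the cystathionine lyase that makes cysteine, went from 7.88 and 7.84 to 6.90 and 6.69, a 2.09-fold lower level (1.2 to 3.64, adjusted p = 0.0476). The arrays of the 2 groups stood apart for each of these enzymes. The CTH call was also lost when each array was centred on its median (adjusted p = 0.0532).

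**Figure D1:**
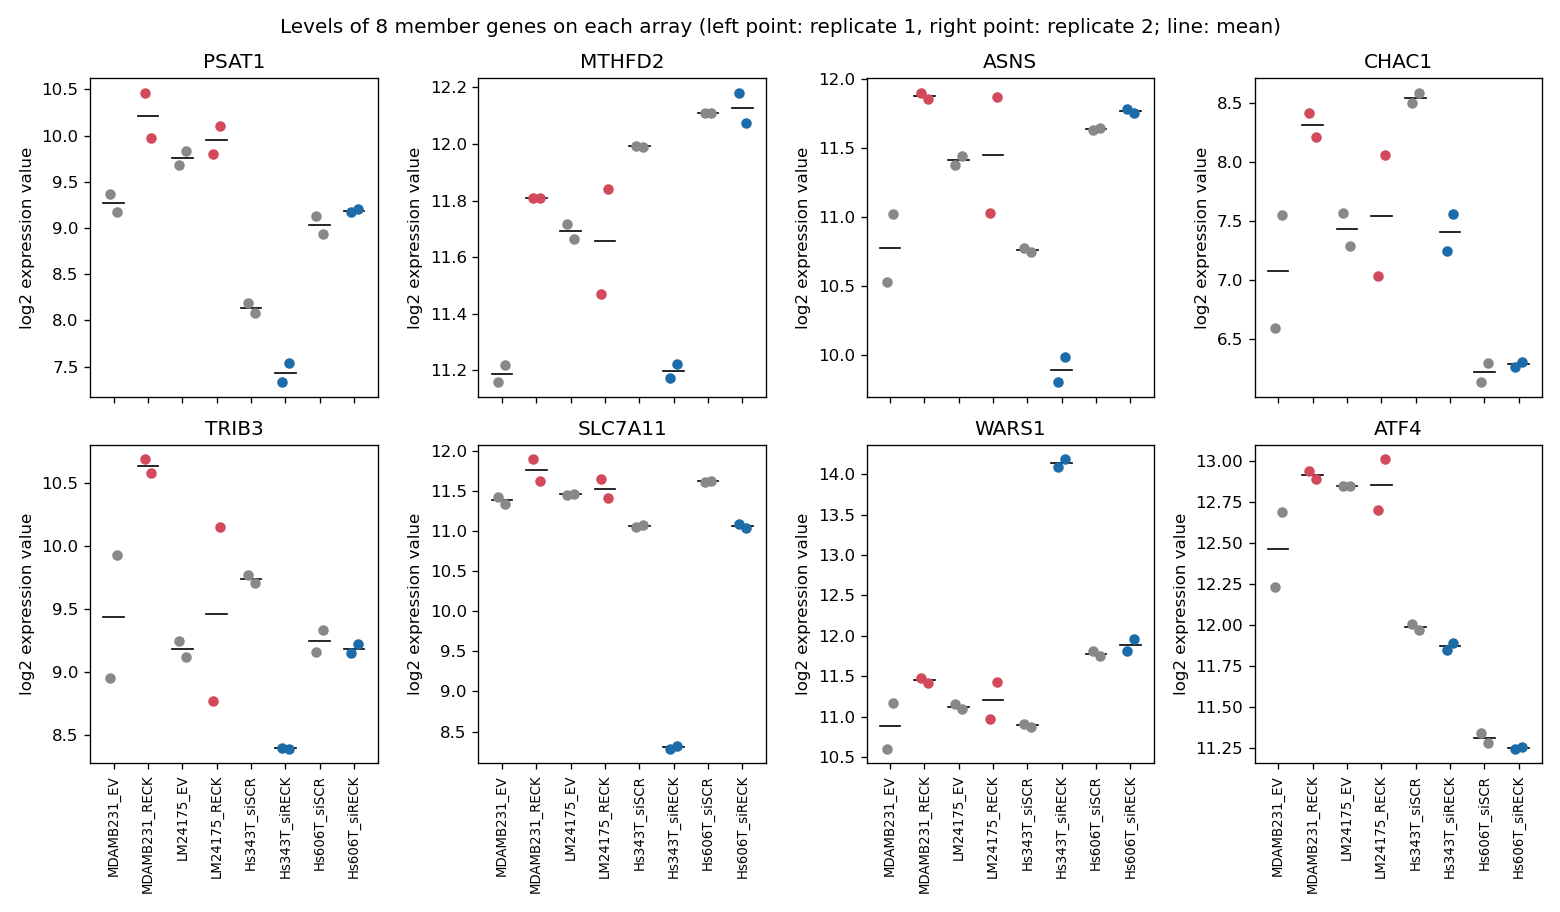
Levels of PSAT1, MTHFD2, ASNS, CHAC1, TRIB3, SLC7A11, WARS1 and ATF4 on each of the 16 arrays (log2 expression value, vertical axis, with its own scale in each panel). Points are arrays, short lines are group means, and colour separates the control arms (grey), construct arms (red) and siRECK arms (blue). SLC7A11 drops from 11.1 to 8.3 and WARS1 rises from 10.9 to above 14 in Hs343T, while ATF4 mRNA stays between 11.8 and 12.0 there.

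Of the 7 regulators, 3 fell and ATF4 itself was not among them. ATF4 mRNA read 12.00 and 11.97 on the siSCR arrays and 11.85 and 11.89 on the siRECK arrays, a difference of -0.12 (95% interval -0.41 to 0.17, adjusted p = 0.577). DDIT4, an inhibitor of the growth kinase complex mTORC1, read 10.8 and 10.7 against 8.71 and 8.83. It was 3.91-fold lower (2.25 to 6.79, adjusted p = 0.00127), and its groups were far apart. TRIB3, a pseudokinase that feeds back on ATF4, went from 9.76 and 9.71 to 8.40 and 8.39, a 2.53-fold lower level (1.47 to 4.36, adjusted p = 0.0136). CEBPG, an ATF4 partner, fell by 0.44 (adjusted p = 0.00177). The stress factor DDIT3 differed by -0.42 (95% interval -0.86 to 0.02, adjusted p = 0.153) and CEBPB by -0.28 (adjusted p = 0.185), and neither passed. NUPR1, a small stress-induced nuclear protein, differed by 0.08 (95% interval -0.39 to 0.56).

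Of the 6 transporters, 5 fell. SLC7A11, the cystine and glutamate exchanger, had the largest fall of all members: it read 11.05 and 11.08 on the siSCR arrays and 8.29 and 8.32 on the siRECK arrays. This was a 6.78-fold lower level (95% interval 5.82 to 7.9, adjusted p = 9.94e-10). A further SLC7A11 probe set fell by 2.86 (adjusted p = 1.0e-09), while the third differed by -0.70 and did not pass (adjusted p = 0.0882). SLC3A2, the heavy chain that SLC7A11 and SLC7A5 both pair with, went from 9.72 and 9.68 to 8.89 and 8.76, a 1.84-fold lower level (1.4 to 2.42, adjusted p = 0.00272). SLC7A5, which imports large neutral amino acids, went from 10.44 and 10.41 to 9.68 and 9.55, a 1.76-fold lower level (1.41 to 2.18, adjusted p = 9.6e-04). The glutamine transporter SLC1A5 fell by 0.37 (adjusted p = 0.0175). The main probe set of the cationic amino acid transporter SLC7A1 fell by 0.44 (adjusted p = 0.00305), but its 4 other probe sets, at -0.14 to 0.08, did not pass. SLC38A2, another glutamine transporter, differed by 0.04 (95% interval -0.30 to 0.38).

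Among 10 tRNA synthetases and the tRNA exporter XPOT, 9 fell and WARS1 rose. WARS1 read 10.91 and 10.88 on the siSCR arrays and 14.09 and 14.18 on the siRECK arrays. It was 9.48-fold higher (95% interval 7.34 to 12.2, adjusted p = 2.72e-08), and its second probe set differed by 3.64 (adjusted p = 1.12e-09). Without WARS1, 8 of the 9 synthetases fell, with a median log2 difference of -0.43. CARS1, for cysteine, went from 12.07 and 12.06 to 11.14 and 11.20, a 1.86-fold lower level (1.55 to 2.22, adjusted p = 1.03e-04). YARS1 and TARS1, for tyrosine and threonine, were 1.62-fold (1.36 to 1.92) and 1.47-fold (1.28 to 1.7) lower. The smallest passing fall was that of NARS1, for asparagine, at 1.27-fold (1.14 to 1.41, adjusted p = 0.00258). XPOT was 1.64-fold lower (1.37 to 1.96, adjusted p = 5.69e-04). GARS1, for glycine, differed by -0.33 and did not pass (adjusted p = 0.064). For EPRS1 the main probe set passed as lower (-0.40) and its other 2 probe sets, at -0.14 and -0.36, did not.

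Of the secreted and surface targets, the lipoprotein receptor VLDLR fell by 0.67 (adjusted p = 0.0351). The main probe set of STC2, a secreted stanniocalcin, read 10.3 and 10.5 against 10.2 on both siRECK arrays and did not pass, while its other probe set fell by 1.06 (adjusted p = 3.48e-05). Of the 26 calls, 18 held whichever of the 4 Hs343T arrays was left out, with 20 or 21 calls each time. PSAT1 (adjusted p = 0.0506) and ASNS (0.0639) were lost without siRECK replicate 1, SARS1 and SLC1A5 without 2 of the 4 arrays each, CHAC1 without 3, and CTH, TRIB3 and VLDLR without any 1 of the 4.

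Members fell both with and without the element shown above. Of the 12 with TGATGNAA in a window, 11 fell, with a median log2 difference of -0.44. Of the 17 with a window and no match, 10 fell and 1 rose, with a median of -0.50, and of the 5 with no window 4 fell. The interferon-type repeat was picked for WARS1, the member that rose, and stood in 4.13% of all genes with a window. Its part in the rise was not tested.

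**Figure D2:**
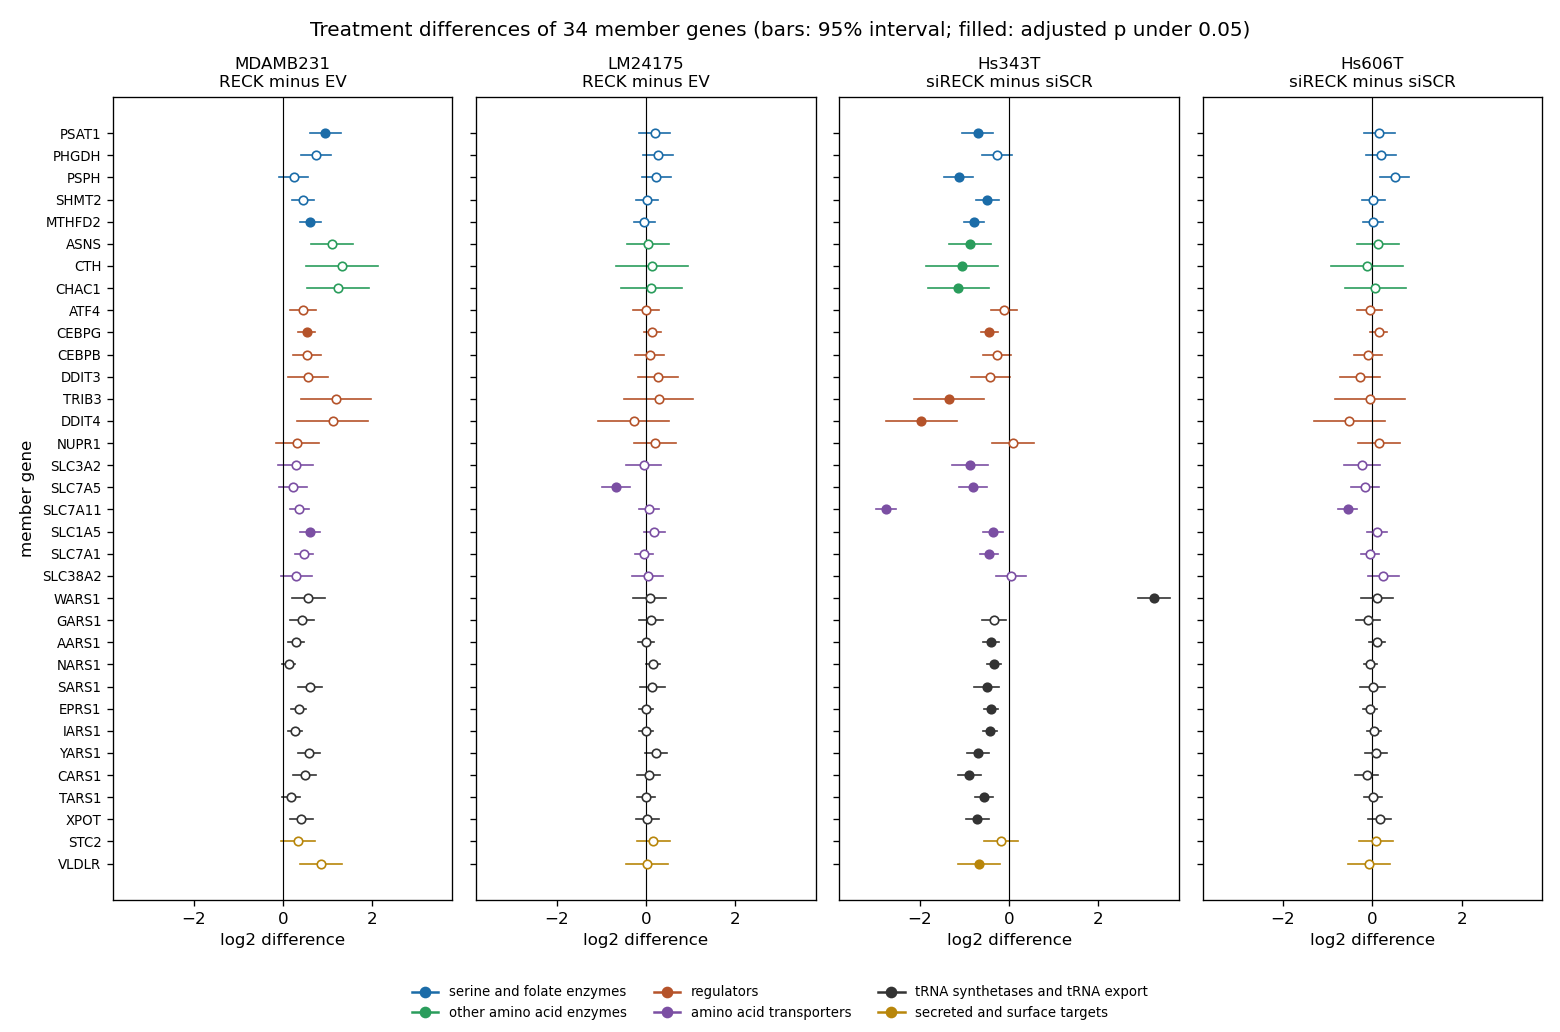
Log2 differences of the 34 members between treated and control arms in the 4 lines (horizontal axis; bars are 95% intervals of the limma fit, filled points passed at an adjusted p under 0.05, and colours are the roles). In MDAMB231 all 34 points lie above 0 and 4 are filled, in Hs343T 25 filled points lie below 0 and WARS1 alone is filled above, and LM24175 and Hs606T have 1 filled point each.

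Other genes of the pathway, taken from lists also chosen with earlier results of these data known, did not follow the members as a block in Hs343T. Of 5 eIF2 kinases and phosphatase genes, 1 rose and 2 fell. EIF2AK2, the kinase PKR that responds to double-stranded RNA, went from 8.23 and 8.14 to 10.64 and 10.72, a 5.63-fold higher level (95% interval 4.98 to 6.37, adjusted p = 3.24e-10), while the endoplasmic reticulum kinase EIF2AK3 fell by 0.55 (adjusted p = 0.00703) and EIF2AK1 by 0.28 (adjusted p = 0.0138). Of 9 other ATF4 partners and targets, 3 rose and 4 fell. ATF3, a stress factor that ATF4 can induce, was 6.21-fold higher (4.49 to 8.59, adjusted p = 1.6e-06) and ATF5 was 2.03-fold higher (1.71 to 2.4, adjusted p = 2.03e-05), and the glycine transporter SLC6A9 rose by 0.44 (adjusted p = 0.045). The glutamine transporter SLC38A1 fell by 0.92, the translation inhibitor EIF4EBP1 by 0.86, and the proline synthesis enzymes PYCR1 and ALDH18A1 by 0.71 and 0.59, all past the test. SLC6A9, PYCR1 and ALDH18A1 were named after their values were seen, so that all 7 passing genes of this list are given.

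Of 3 other folate enzymes, thymidylate synthase (TYMS) fell by 0.79 (adjusted p = 2.11e-04). Of 6 other cytosolic synthetases, VARS1 fell by 0.44, FARSA fell by 0.42 and HARS1 rose by 0.43. Of 10 mitochondrial synthetases, NARS2 fell by 1.17, CARS2 fell by 0.90, LARS2 rose by 0.65 and HARS2 rose by 0.36. Among 11 genes of the endoplasmic reticulum chaperone arm of the unfolded protein response, which is run mainly by other factors, XBP1 rose by 0.76 while CRELD2 fell by 0.35 and MANF by 0.21. Among the member cytosolic synthetases 8 of 9 fell besides WARS1, which rose, and 2 of 6 fell outside the list. Members and lists were chosen with earlier results of these data known, so these counts cannot compare the lists. The difference between the lists was not tested.

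Beside these falls, cell type markers also moved in Hs343T. Of 8 epithelial markers, KRT14 was higher (2.30, adjusted p = 2.7e-09), while KRT18 (-1.08), KRT19 (-0.92) and KRT8 (-0.64) were lower. None of 9 fibroblast markers passed, and of 5 leukocyte markers CD163 passed as lower (-0.43). The mean of the fibroblast list ran from 12.37 to 12.39 on the siSCR arrays and from 12.33 to 12.38 on the siRECK arrays. That of the epithelial list ran from 6.65 to 6.78 and from 6.66 to 6.72, with members moving both ways. That of the leukocyte list ran from 4.77 to 5.01 and from 4.65 to 4.66, so that its arrays did not overlap. The GAPDH 3′ minus 5′ probe difference, a sign of RNA quality, was 0.357 and 0.392 on the siSCR arrays and 0.427 and 0.481 on the siRECK arrays. The part of these markers and of RNA quality in the result was not tested. In bulk RNA, fewer cells of a kind and less RNA per cell cannot be told apart.

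In Hs606T the members did not fall as a group. With 1.2% of all genes passing, 0.811% as higher and 0.385% as lower, 1 of 34 members passed, as lower, and the median log2 difference was 0.02. Both siRECK arrays lay above both siSCR arrays for 10 members and below them for 13, against 24.0% and 24.8% of all genes. That member was SLC7A11, at 11.61 and 11.63 on the siSCR arrays and 11.09 and 11.04 on the siRECK arrays. It was 1.47-fold lower (95% interval 1.26 to 1.71, adjusted p = 0.0214), and the call was lost without any 1 of the 4 arrays, with adjusted p from 0.0983 to 0.159. It was also lost with the mean of its probe sets (adjusted p = 0.204) and with only the Hs606T arrays fitted (0.0758). ASNS read 11.63 and 11.65 against 11.78 and 11.75, a difference of 0.13 (95% interval -0.34 to 0.59), and PSAT1 differed by 0.16 (-0.18 to 0.51). PHGDH differed by 0.19 (-0.14 to 0.52), ATF4 by -0.06 (-0.35 to 0.23) and DDIT3 by -0.27 (-0.71 to 0.17). WARS1 read 11.81 and 11.74 on the siSCR arrays and 11.81 and 11.96 on the siRECK arrays, overlapping groups with a difference of 0.11 (-0.26 to 0.47). PSPH leaned the other way from Hs343T, at 8.25 and 8.15 against 8.97 and 8.44, but did not pass (0.50, adjusted p = 0.181). Without siRECK replicate 2 it passed as higher (0.77, adjusted p = 0.025), and no other member did. Of the other pathway genes, EIF2AK2 rose, from 9.53 on both siSCR arrays to 10.31 and 10.22 (1.66-fold, 95% interval 1.47 to 1.88, adjusted p = 5.57e-04), and no other passed.

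The difference between the responses of Hs606T and Hs343T passed for 17 of 34 members, 16 of them higher in Hs606T and WARS1 lower. Among all genes 20.4% passed, 11.6% as higher and 8.72% as lower. The median difference of the members was 0.55 against 0.04 over all genes, and 33 members had a value above 0. SLC7A11 differed most among the 16, by 2.21 (SE 0.14, adjusted p = 4.62e-07), although it fell in both lines. PSPH differed by 1.63 (SE 0.21, adjusted p = 1.7e-04), ASNS by 0.99 (SE 0.30, adjusted p = 0.0368), XPOT by 0.88 (SE 0.17, adjusted p = 0.00257), PSAT1 by 0.86 (SE 0.22, adjusted p = 0.0167) and MTHFD2 by 0.81 (SE 0.15, adjusted p = 0.00184). WARS1 differed by -3.14 (SE 0.24, adjusted p = 1.93e-06). By role, 4 of 5 serine and folate enzymes, 3 of 6 transporters, and 6 of 9 synthetases besides WARS1 passed. DDIT4 (1.45, adjusted p = 0.069), TRIB3 (1.28, adjusted p = 0.103) and CHAC1 (1.21, adjusted p = 0.0792) had large values that did not pass. Leaving out 1 array gave 11 to 13 calls, and 11 members passed under every such omission: AARS1, CARS1, CEBPG, IARS1, MTHFD2, PSPH, SLC7A11, TARS1, WARS1, XPOT and YARS1. The calls of SHMT2, ASNS, SLC7A5 and EPRS1 were lost without any 1 of the 8 arrays, with adjusted p from 0.0579 for ASNS to 0.126 for SLC7A5.

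In MDAMB231 all 34 members had a higher mean with the RECK construct, but 4 passed the test. Among all genes 0.276% passed, 0.226% as higher and 0.0502% as lower. The median log2 difference of the members was 0.48 against 0.01 over all genes. Both construct arrays lay above both EV arrays for 32 members, against 20.5% of all genes, and SLC3A2 and SLC38A2 were the exceptions. The members that rose were PSAT1, MTHFD2, CEBPG and SLC1A5.

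PSAT1 read 9.37 and 9.17 on the EV arrays and 10.46 and 9.97 on the construct arrays, a 1.93-fold higher level (95% interval 1.52 to 2.45, adjusted p = 0.0362). MTHFD2 went from 11.16 and 11.22 to 11.81 on both construct arrays, a 1.54-fold higher level (1.31 to 1.8, adjusted p = 0.0362). CEBPG went from 8.77 and 8.88 to 9.32 and 9.41, a 1.45-fold higher level (1.28 to 1.65, adjusted p = 0.0313). SLC1A5 went from 9.04 and 9.24 to 9.82 and 9.66, a 1.51-fold higher level (1.3 to 1.77, adjusted p = 0.0383). The arrays of the 2 groups did not overlap for any of these genes.

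Several members with larger differences did not pass, and their EV arrays lay far apart. ASNS read 10.53 and 11.02 on the EV arrays and 11.90 and 11.86 on the construct arrays, a difference of 1.10 (95% interval 0.63 to 1.57, adjusted p = 0.0625). CTH read 8.50 and 9.48 against 10.22 and 10.40 (1.32, adjusted p = 0.188). CHAC1 read 6.59 and 7.55 against 8.41 and 8.21 (1.24, adjusted p = 0.149), and TRIB3 read 8.95 and 9.92 against 10.69 and 10.57 (1.19, adjusted p = 0.234). In each of these genes EV replicate 1 was the lower EV array. PHGDH differed by 0.75 (0.42 to 1.08, adjusted p = 0.0704), ATF4 by 0.45 (0.17 to 0.74, adjusted p = 0.218) and DDIT3 by 0.56 (SE 0.20, adjusted p = 0.318). No other pathway gene passed. The 4 calls became 0 without EV replicate 1 (PSAT1 1.04, adjusted p = 0.0732), 24 without EV replicate 2, 0 without construct replicate 1 (PSAT1 0.70, adjusted p = 0.288) and 3 without construct replicate 2. Over all genes, 0.217% passed in the fit without EV replicate 1, 5.69% without EV replicate 2, 0.0251% without construct replicate 1 and 0.995% without construct replicate 2. With only the MDAMB231 arrays fitted, none of the 4 calls held (adjusted p = 0.728 for each).

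In LM24175 the members differed little between the construct and the empty vector, and SLC7A5 alone passed, as lower. Among all genes 6.7% passed, 3.44% as higher and 3.27% as lower. The median log2 difference was 0.08, with 27 members above 0. Both construct arrays lay above both EV arrays for 5 members, against 23.2% of all genes, and below them for 1, against 24.7%. SLC7A5 read 12.31 and 12.24 on the EV arrays and 11.39 and 11.81 on the construct arrays, a 1.6-fold lower level (95% interval 1.28 to 1.99, adjusted p = 0.0161). The groups did not overlap, and the call was lost without EV replicate 1 (adjusted p = 0.122), EV replicate 2 (0.0851) or construct replicate 1 (0.127). Without that last array NUPR1 (0.70, adjusted p = 0.00332) and PHGDH (0.56, adjusted p = 0.0276) passed as higher. With only the LM24175 arrays fitted, SLC7A5 did not pass (adjusted p = 0.11). ASNS read 11.38 and 11.44 on the EV arrays and 11.03 and 11.87 on the construct arrays, so that the construct arrays lay on either side of the EV arrays (0.04, 95% interval -0.43 to 0.51). PSAT1 differed by 0.19 (-0.15 to 0.54), PHGDH by 0.27 (-0.06 to 0.60), ATF4 by 0.01 (-0.28 to 0.30) and DDIT3 by 0.27 (-0.18 to 0.71). Of the other pathway genes, ATF5 rose by 0.59 (adjusted p = 0.00778), FARSA rose by 0.38 (adjusted p = 0.0387) and the mitochondrial synthetase IARS2 fell by 0.31 (adjusted p = 0.039).

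The difference between the construct responses, LM24175 minus MDAMB231, passed for 2 members where 3.64% of all genes passed, 1.65% as higher and 1.99% as lower (197 and 238 genes, or 230 and 183 after centring every array at its own median). SLC7A5 differed by -0.90 (SE 0.20, adjusted p = 0.0349) and MTHFD2 by -0.65 (SE 0.15, adjusted p = 0.033). Values lay below 0 for 33 members, with a median of -0.42. Both calls were lost when MDAMB231 EV replicate 1, MDAMB231 construct replicate 1 or 2, LM24175 EV replicate 1 or 2, or LM24175 construct replicate 1 was left out. Without MDAMB231 EV replicate 2 the member median was -0.60, against 0.01 over all genes. Without LM24175 construct replicate 2 it was also -0.60, against 0.0004 over all genes. Without replicate 1 of the same groups it was -0.28 and -0.27. With only the arrays of these lines fitted, neither SLC7A5 (adjusted p = 0.182) nor MTHFD2 (adjusted p = 0.184) passed.

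The members separated 2 arrays from their replicates. On the EV replicate 1 array of MDAMB231, 29 of 34 members lay below EV replicate 2, with a median gap of -0.29 and the widest gap in DDIT4 at -1.14. On the construct replicate 1 array of LM24175, 32 of 34 lay below replicate 2, with a median gap of -0.31 and the widest in CTH at -1.40. More than 0.3 log2 units separated the arrays for 17 members in the first group and 18 in the second, against 25.7% and 20.8% of all genes. In the other 6 groups the median gap was between -0.04 and 0.06, and at most 2 members were more than 0.3 apart. Among all genes those shares were 10.5% in the MDAMB231 construct arm, 6.5% in LM24175 EV, 11.6% and 11.7% in Hs343T siSCR and siRECK, and 9.95% and 12.9% in Hs606T siSCR and siRECK. The first array is a control and the second a construct array, so the gaps enter the 2 comparisons with opposite sign. Across all genes the deviations of these arrays had a correlation of 0.486, and genes are not independent replicates.

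**Figure D3:**
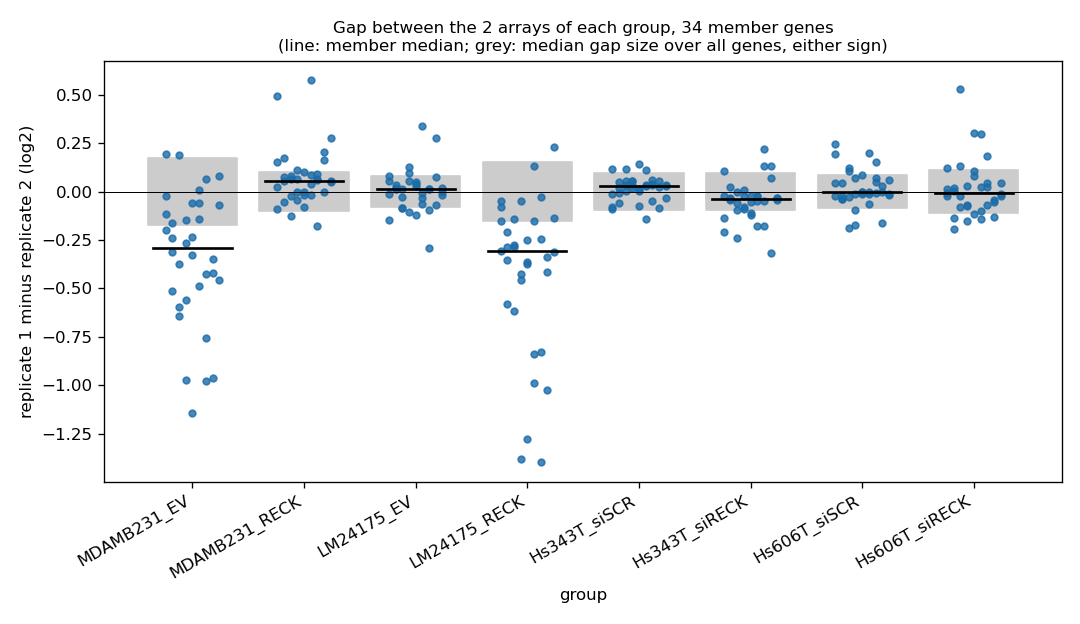
Gap between the 2 arrays of each group (replicate 1 minus replicate 2, log2, vertical axis) for the 34 members in the 8 groups. Points are genes, black lines are the member medians, and grey bands span the median gap size over all 11963 genes on either side of 0. The members of the MDAMB231 EV and LM24175 construct groups lie mostly below 0, with medians of -0.29 and -0.31, and those of the other 6 groups centre near 0.

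With both of those arrays left out, a choice made after the values were seen, the calls in the construct lines changed. The members' own levels mark these arrays, so the fit gives no separate support for a response of the members. Over all genes the share that passed rose as well, to 0.978% in MDAMB231, 8.07% in LM24175, 35.9% in Hs343T and 3.04% in Hs606T. In MDAMB231 8 members passed as higher: PSAT1 (1.04), ASNS (0.86), CTH (0.83), TRIB3 (0.71), PHGDH (0.63), MTHFD2 (0.59), DDIT4 (0.54) and YARS1 (0.42). In LM24175 9 members passed as higher, namely TRIB3 (0.97), CTH (0.84), NUPR1 (0.70), CHAC1 (0.63), DDIT3 (0.57), PHGDH (0.56), ASNS (0.46), YARS1 (0.38) and CEBPB (0.26), while SLC7A5 still passed as lower (-0.47). ASNS, CTH, TRIB3, PHGDH and YARS1 were higher in both lines in this fit, but nothing shows which array of a pair deviates. The member median in LM24175 was 0.23 without construct replicate 1 and -0.09 without construct replicate 2. In MDAMB231 it was 0.34 without EV replicate 1 and 0.66 without EV replicate 2. With both deviating arrays left out, the differences between the responses were -0.44 for MTHFD2 and -0.48 for SLC7A5. Each of the reduced groups holds 1 array, which is taken to vary like the other groups. In Hs343T 30 members passed and in Hs606T 2, SLC7A11 and DDIT4 (-0.52).

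Between the invasive lines with empty vector, LM24175 had higher levels than MDAMB231 for 16 members and lower for 1. Among all genes 20.8% passed, 9.87% as higher and 10.9% as lower. NUPR1 stood furthest apart, at 6.47 and 6.61 in MDAMB231 and 9.35 and 9.38 in LM24175, a 7.08-fold higher level (95% interval 5.09 to 9.86, adjusted p = 4.57e-06). DDIT4 differed by 1.12 (adjusted p = 0.0478), DDIT3 by 0.80 (adjusted p = 0.0142), SLC7A5 by 0.70 (adjusted p = 0.0044), PHGDH by 0.56 (adjusted p = 0.0198) and MTHFD2 by 0.50 (adjusted p = 0.00478). The exception was NARS1, at 12.52 and 12.46 in MDAMB231 and 11.76 and 11.75 in LM24175 (-0.73, adjusted p = 2.05e-05). ATF4 (0.39, adjusted p = 0.0604) and ASNS (0.63, adjusted p = 0.0566) did not pass. By role, 4 of 5 serine and folate enzymes, 4 of 7 regulators, 2 of 6 transporters and 6 of 11 synthetases and XPOT passed as higher. The 3 other amino acid enzymes had values above 0 (0.35 to 0.68) but did not pass. The size of the differences depends on the array described above. The member median was 0.41 in the main fit, 0.23 without MDAMB231 EV replicate 1 and 0.53 without EV replicate 2. Without MDAMB231 EV replicate 1 PHGDH differed by 0.44, DDIT3 by 0.48 and DDIT4 by 0.55, and none of these passed. Without LM24175 EV replicate 1 or 2 the median was 0.40 and 0.41, but PHGDH, DDIT3 and DDIT4 passed in neither fit. With both deviating arrays left out it was 0.23, while SLC38A2 (-0.48) and TRIB3 (-0.75) were lower in LM24175. With only the arrays compared in the fit, 4 members passed, against 9.77% of all genes.

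Between the poorly invasive lines with siSCR, 7 members were higher and 8 lower in Hs606T than in Hs343T, among 36.8% of all genes (18.4% higher, 18.5% lower). CHAC1 was at 8.50 and 8.59 in Hs343T and 6.13 and 6.30 in Hs606T, a 5.02-fold lower level (95% interval 3.12 to 8.09, adjusted p = 1.08e-04). SLC38A2 differed by -1.11 (adjusted p = 1.41e-04), STC2 by -1.11 (adjusted p = 3.33e-04), ATF4 by -0.67 (adjusted p = 0.0017) and SLC1A5 by -0.53 (adjusted p = 0.00142). CEBPB differed by 1.22 (adjusted p = 3.97e-05), PSAT1 by 0.89 (adjusted p = 7.98e-04), WARS1 by 0.89 (adjusted p = 0.00132), ASNS by 0.88 (adjusted p = 0.00672) and SLC7A11 by 0.56 (adjusted p = 9.44e-04). With the mean of its 3 probe sets SLC7A11 differed by 0.19 and did not pass (adjusted p = 0.346). PHGDH (0.15, adjusted p = 0.477) and DDIT3 (-0.46, adjusted p = 0.0989) did not pass. The enzymes ASNS and PSAT1 were thus higher, and ATF4 mRNA lower, in the same line. PSPH gave no single direction, since its main probe set differed by -1.55 (adjusted p = 7.48e-06) and the other by 0.83 (adjusted p = 6.65e-04). The siSCR arrays of Hs343T and Hs606T also enter the treatment comparisons of these lines, as the EV arrays do in the invasive lines.

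Across the control arms, the 4 EV arrays all lay above the 4 siSCR arrays for 8 members and all below for 6, while 20 members overlapped. Among all genes 54.0% did not overlap, 26.3% with the EV arrays higher and 27.7% with them lower. The widest separation was in STC2, at 4.19 to 4.85 on the EV arrays and 9.17 to 10.5 on the siSCR arrays. NUPR1 was at 6.47 to 9.38 against 10.7 to 11.2, and VLDLR, MTHFD2, PHGDH and GARS1 were also lower on the EV arrays. The members that were higher there were PSAT1, SHMT2, ATF4, CEBPG, SLC3A2, SLC7A5, AARS1 and TARS1. PSAT1 was at 9.17 to 9.83 on the EV arrays and 8.08 to 9.13 on the siSCR arrays, so that its arms nearly met. PHGDH was at 8.34 to 9.03 and 9.30 to 9.51. With 54.0% of all genes apart in this way, these separations are not read as a trait of the members. The ACTB 3′ minus 5′ probe difference was 0.71 to 0.96 on the EV arrays and 1.16 to 1.55 on the siSCR arrays. Line, fibroblast marker levels, vector, transfection and this sign of RNA quality differ together between these arms and cannot be told apart, and no test was made.

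**Figure D4:**
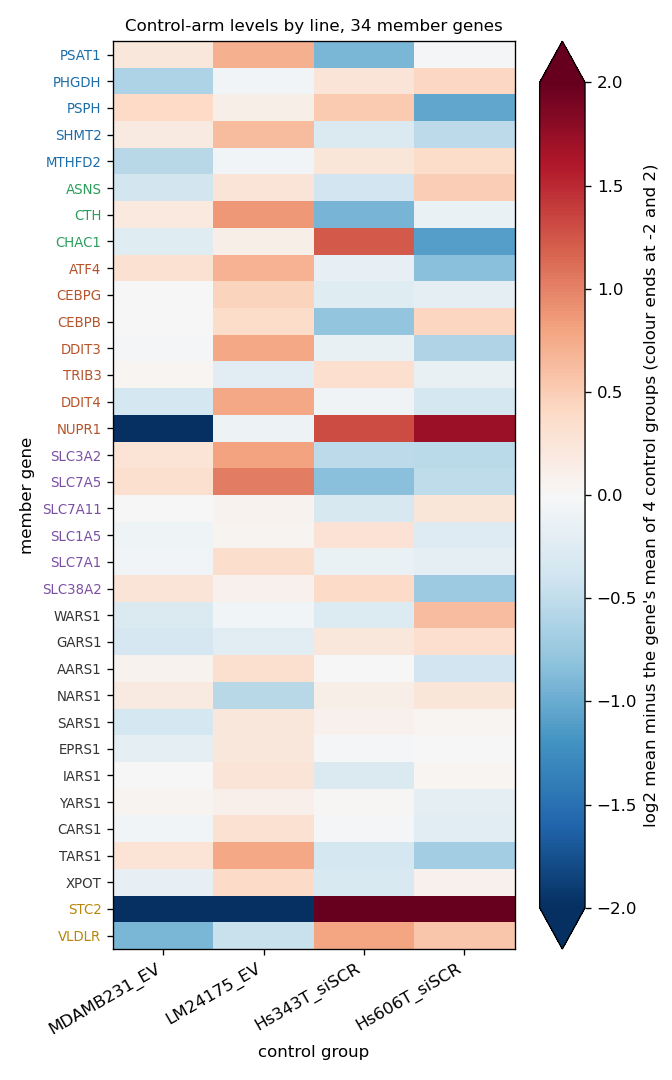
Mean log2 level of each of the 34 members in the 4 control groups, minus the gene's mean over those groups (colour, ending at -2 and 2). Rows are genes with names coloured by role and columns are MDAMB231 and LM24175 with empty vector and Hs343T and Hs606T with siSCR. STC2 runs past both ends of the scale, NUPR1 is lowest in MDAMB231, and CHAC1 is high in Hs343T and low in Hs606T.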

How the data were processed

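Expression was measured on 16 arrays in 8 groups of 2. The authors deposited log2 values for each probe set. Their scanner files had gone through Partek, per the labels and the submitters' processing notes. Its version, and how probes were summarised and scaled, is not given in the sources used here, and values were used as deposited. Base 2 was inferred from the range of the values. Of 22277 probe sets, 19070 had 1 symbol in the platform annotation, 1043 had several and 2164 were not listed. Without the 62 control probe sets, 19064 probe sets gave 11963 genes, and 0 symbols needed updating.

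All arrays entered 1 limma fit of group means (limma 3.58.1, R 4.3.3; 8 residual and 3.72 prior degrees of freedom, median residual SD 0.129). Tests were 2-sided and adjusted by Benjamini and Hochberg over all genes, with 0.05 as the threshold. Folds are 2 to the power of the log2 difference, with 95% intervals of the fit. The number of arrays limits the precision. The procedure was tested on simulated data. Alternatives were quantile normalization, centring on array medians, the mean of all probe sets, testing each probe set by itself, dropping the genes below the lower quartile of level, trend and robust options in eBayes, fits of only the arrays compared, the replicate number as a block, and leaving out each array. Leaving out both deviating arrays was added later.

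The members and lists were chosen with earlier results of these data known. Named genes are members by role, among them members that passed, though not all in every comparison. In the treatment comparisons of the 4 lines ATF4, PSAT1, PHGDH, ASNS and DDIT3 are given whatever their values. Up to 4 passing genes of each other pathway list are given there by size, with the exceptions given where they stand. Genes of those lists also passed in other comparisons, and these are not named. Promoter windows are RefSeq's, GRCh38.p14. Python 3.11.15 with numpy 2.4.6, pandas 2.3.3 and matplotlib 3.10.9 made the tables and figures.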

Additional observations from a re-analysis of the deposited data

Results flagged for a closer look

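The response to the array labels siRECK and siSCR differed between Hs606T and Hs343T, by a test of the difference itself in limma (adjusted p under 0.05 over all genes), for 17 of 34 members. Among all genes 20.4% passed. The log2 difference in response, Hs606T minus Hs343T, was 2.21 for SLC7A11, 1.63 for PSPH, 0.99 for ASNS, 0.88 for XPOT, 0.86 for PSAT1, 0.81 for MTHFD2, 0.77 for YARS1 and 0.77 for CARS1. It was 0.65 for SLC7A5, 0.58 for CEBPG, 0.58 for TARS1, 0.53 for AARS1, 0.51 for SHMT2, 0.47 for SLC1A5, 0.46 for IARS1 and 0.35 for EPRS1. WARS1 went the other way, at -3.14. The calls of SHMT2, ASNS, SLC7A5 and EPRS1 were lost without any 1 array, and EPRS1 differed by 0.21 with the mean of its probe sets (adjusted p = 0.711). The construct response differed between LM24175 and MDAMB231 by the same test for SLC7A5 (-0.90) and MTHFD2 (-0.65), where 3.64% of all genes passed. Both calls were lost with only the arrays compared (adjusted p = 0.182 and 0.184) and in most fits with 1 array left out.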

How the results depend on the processing

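No called member changed sign under any alternative run. The share of all genes that passed moved with the setting too. In MDAMB231 it was 0.276% in the main fit and 0.658% without the genes below the lower quartile. It was 0.677% there with trend and robust, 0% with only the arrays compared and 0.167% with the block. With only the arrays compared, it went from 20.4% to 25.1% between siRNA responses and from 36.8% to 40.4% between siSCR arms. Without the genes below the lower quartile of level the 4 calls in MDAMB231 became 8, with trend and robust 12, with only the arrays compared 0, with the replicate number as a block 1, and with both deviating arrays left out 8. The single call in LM24175 became 0 with only the arrays compared and 10 with both deviating arrays left out. That in Hs606T became 0 with the mean of all probe sets, 0 with only the arrays compared and 2 with both arrays left out. The 2 calls between construct responses became 6 with trend and robust, 0 with only the arrays compared and 0 with both arrays left out. The 17 between siRNA responses became 27 with only the arrays compared and 27 with both arrays left out. The 17 between the EV arms became 4 with only the arrays compared, and the 15 between the siSCR arms became 23 so and 24 with both arrays left out. The causes were not tested. Leaving out 1 array gave 0 to 24 calls in MDAMB231, 0 to 2 in LM24175, 20 to 21 in Hs343T, 0 to 1 in Hs606T, 0 to 15 between construct responses, 11 to 13 between siRNA responses, 8 to 21 between EV arms and 13 to 14 between siSCR arms. Of the 26 calls in Hs343T, 16 passed under every alternative. Between the 2 groups of each direct comparison, same-numbered arrays deviated with correlations of -0.05 to 0.05, so the numbers were not taken to pair them. Over all pairs of groups the range was -0.12 to 0.49, the highest between the 2 deviating arrays' groups. With the block PSAT1, MTHFD2 and SLC1A5 lost their calls in MDAMB231 (adjusted p = 0.0525 each) and all-gene calls there went from 33 to 20, and it moved no other member count by over 1.5 times. Over all genes and outside the single-array omissions, the 33 calls in MDAMB231 ran from 0 to 117. With only the arrays compared, 802 became 153 in LM24175, 143 became 65 in Hs606T, 435 became 21 between construct responses and 2489 became 1169 between EV arms. The 143 became 364 with both deviating arrays left out, and the 435 became 671 with trend and robust. Centring on medians turned the 197 higher and 238 lower genes between construct responses into 230 and 183, the 1393 and 1043 between siRNA responses into 1143 and 1167, and the 1432 and 2079 in Hs343T into 1602 and 1678. Members then counted 13 higher and 1 lower between siRNA responses and 1 and 24 in Hs343T. With no detection calls used here, a low level such as that of STC2 in the invasive lines cannot be set against background.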
